A study of Ictidomys tridecemlineatus with 31 samples.

Results

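The 6 genes described here encode enzymes and carriers of ketone body metabolism: Bdh1, Bdh2, Oxct1, Acat1, Slc16a1 and Slc16a7. They were taken by symbol from the kidney expression table of 13-lined ground squirrels, which holds 12863 genes, and each of the 6 symbols had 1 row (gene23447, gene9076, gene8942, gene12111, gene20134 and gene18164, in the order above). The rule used the symbols alone. The files pair these identifiers with symbols, and no sequence or position is given here.

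Ketone bodies are small acids made from fatty acids and carried in blood as fuel. In the mitochondrion, BDH1 interconverts acetoacetate and beta-hydroxybutyrate. Cells that burn ketone bodies take them up through monocarboxylate transporters, activate acetoacetate with OXCT1 and split the product with the thiolase ACAT1, so that BDH1 and ACAT1 stand on both the synthetic and the oxidative path. The kidney cortex is known as a user of ketone bodies, and hibernators live on stored fat through the winter.

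RNA was sequenced from the kidneys of 31 animals, 17 females and 14 males, with 1 kidney per animal. Summer active animals (SA, 5 animals) were fattening in August and spring dark animals (SpD, 5) were warm again after hibernation but still in the dark, cold room. The 4 hibernation groups followed 1 cycle of cooling and rewarming: entrance into torpor (Ent, 5), early arousal while still cold (EAr, 5), late arousal during rewarming (LAr, 6) and the warm interval between torpor bouts (IBA, 5). No genetic or drug treatment is named for any group, and groups were set by season and by body temperature recorded from implants. K137 (SA) and K113 (LAr) are shown apart, as the study left them out of its own comparisons, which leaves 29 animals, 9 in the active season (SA and SpD) and 20 in hibernation.

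The values are rlog values, a log2 scale on which a difference of 1 is a doubling, already adjusted for the experiment in which a library was made. Experiment 1 held 9 animals, 3 each of IBA, Ent and SpD, and experiment 2 the other 22, including every SA, EAr and LAr animal. Read depth per library is unknown from these values, and animal medians over all genes lay between 9.74 and 9.88. All 10 proximal tubule markers of the kidney were in the table, with a mean per animal of 13.56 to 15.48. The adrenal markers Star and Cyp11b1 had no row. Of 3 liver markers, Apoa1 and Serpina1 had no row, and Alb ran from 8.11 to 10.60, highest in K130. The proximal tubule mean was 15.27 ± 0.16 (SD, n = 4) in SA and 14.41 ± 0.37 (n = 5) in IBA, and it was lowest of all in K130 (13.56), an SpD animal kept in the analysis. Fewer cells of a type and less RNA per cell cannot be told apart in whole-tissue RNA.

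The enzymes of ketone body use were lower in the hibernating kidney. Averaged over the 4 hibernation states against SA and SpD, Oxct1 was 2.17-fold lower, Bdh1 1.86-fold lower and Acat1 1.28-fold lower. Of the 6 genes, 3 passed q under 0.001 and all of these fell, where q is the Benjamini-Hochberg adjusted p from limma over all genes. Among all genes 9.73% passed, and 5.29% passed as lower. At q under 0.05 there were 4 of 6 (Bdh2 joined), against 33.4% of all genes. The median difference over the 6 genes was −0.42, beside 0.00 over all genes. Neither transporter passed in this contrast. The 10 proximal tubule markers had a median difference of −0.29 (range −1.08 to 0.07) in limma, with 0 past 0.001, 4 past 0.05 and 4 with an unadjusted p under 0.05, and with their mean per animal as a covariate Oxct1 was at −1.27, Bdh1 at −0.99 and Acat1 at −0.28, each past 0.001. Thick ascending limb markers averaged 15.25 in SA and 15.75 in SpD, against 14.89 to 15.05 in the hibernation states, with K130 highest (16.53). Principal cell, intercalated cell, endothelium and fibroblast markers also averaged higher in both active states than in any hibernation state. Distal convoluted tubule, podocyte, macrophage and inner medulla markers did not. The part of these other cell types in the result was not tested.

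**Figure D1:**
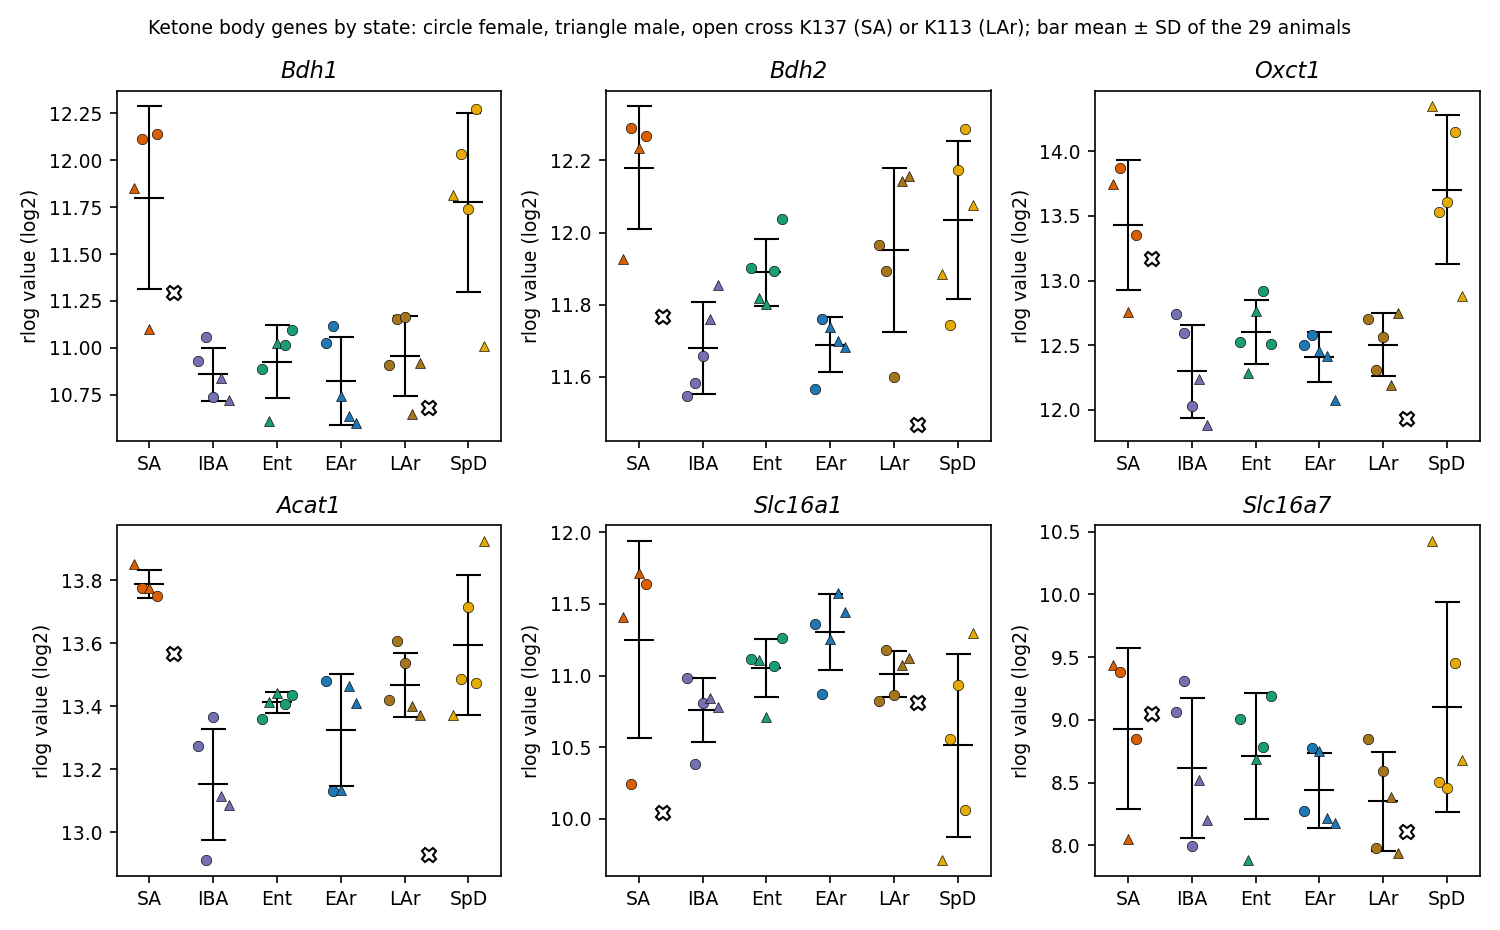
Each panel plots the rlog value (log2, y axis) of 1 gene in each animal by state (x axis); circles are females, triangles males, open crosses K137 and K113, and bars the mean ± SD of the 29 animals. Bdh1 and Oxct1 sat high in SA and SpD and low in the 4 hibernation states, apart from 1 SA and 1 SpD animal, while Slc16a1 was lowest on average in SpD (10.51).

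Oxct1 encodes the enzyme that commits acetoacetate to oxidation. The SA animals had 13.75, 13.87, 12.76 and 13.35, and the SpD animals 14.35, 13.53, 13.60, 14.15 and 12.88. The 20 hibernating animals ran from 11.89 through a median of 12.51 to 12.92. Thus 7 of 9 active animals lay above every hibernating animal, the exceptions being K140 (SA, 12.76) and K9 (SpD, 12.88). The state means fell into 2 levels, SpD at 13.70 ± 0.57 (n = 5) and SA at 13.43 ± 0.50 (n = 4) over Ent at 12.60 ± 0.24, LAr at 12.50 ± 0.24, EAr at 12.41 ± 0.19 and IBA at 12.30 ± 0.36 (n = 5 each). Hibernation minus active was −1.11 ± 0.14 (SE; q = 2.9e-06), and the 6 states differed by the F test (q = 5.95e-05).

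Bdh1, the mitochondrial beta-hydroxybutyrate dehydrogenase, had the same 2 levels. Values were 11.85, 12.11, 11.10 and 12.14 in SA and 11.82, 12.04, 11.74, 12.27 and 11.01 in SpD. In hibernation the lowest was 10.60, the median 10.91 and the highest 11.16. Again 7 of 9 active animals exceeded all 20 hibernating ones, and the exceptions were the same animals, K140 (11.10) and K9 (11.01). Hibernation minus active was −0.90 ± 0.09 (SE; q = 3.84e-07) and the F test gave q = 1.36e-05. State means were 11.80 ± 0.49 in SA and 11.77 ± 0.48 in SpD, and between 10.82 and 10.96 in EAr, IBA, Ent and LAr.

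Acat1, the mitochondrial acetoacetyl-CoA thiolase, moved less. Its SD was 0.04 in SA and 0.03 in Ent, and between 0.10 (LAr) and 0.22 (SpD) in the other states. The SA animals had 13.85, 13.78, 13.78 and 13.75, above every hibernating animal, whose lowest, median and highest values were 12.91, 13.40 and 13.61. The SpD animals had 13.37, 13.49, 13.71, 13.47 and 13.92, of which K6 (13.71) and K9 (13.92) exceeded all hibernating animals and the other 3 lay among them. Hibernation minus active was −0.35 ± 0.06 (SE; q = 9.61e-05) and the F test gave q = 3.29e-04. In experiment 2 alone the difference was −0.28 and no longer passed 0.001 (q = 0.00836).

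Bdh2 encodes a second hydroxybutyrate dehydrogenase, found in the cytosol. It ranged from 11.93 to 12.29 in SA, 11.74 to 12.29 in SpD and 11.55 to 12.16 in hibernation, so that the seasons overlapped, with 5 of 9 active animals above all hibernating ones. Hibernation minus active was −0.30 ± 0.07 (SE), with q = 0.00116, just above 0.001. The F test gave q = 0.00363.

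Across the 6 states together, 3 of the 6 genes (Bdh1, Oxct1 and Acat1) passed q under 0.001, against 9.34% of all genes, and 5 passed 0.05, against 46.1%. Slc16a7 was the gene that did not (q = 0.242). Slc16a1 passed at 0.05 (q = 0.0265), and not with all 31 animals (q = 0.0991), without K130 (q = 0.173) or without K84 (q = 0.0853). It also missed 0.05 with the proximal tubule covariate (q = 0.0513) and with animal weights (q = 0.151). With all 31 animals 2 genes passed 0.001, since Acat1 was then at q = 0.00257. Acat1 was also at q = 0.00245 with the proximal tubule covariate, at q = 0.00483 in experiment 2 alone, and between q = 0.00102 and q = 0.00147 without K104, K138, K139 or K140.

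**Figure D2:**
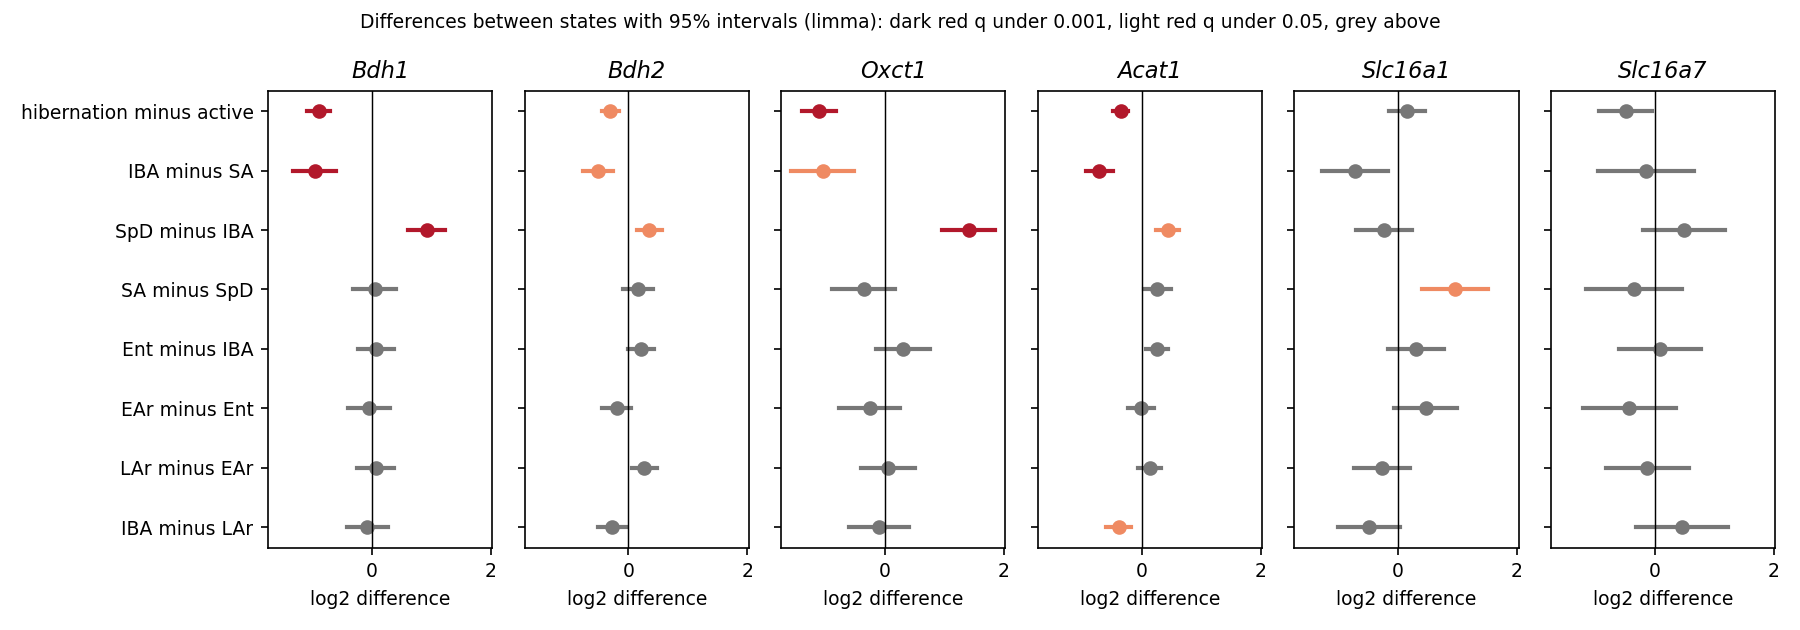
Each panel shows, for 1 gene, the limma log2 difference (x axis) with its 95% interval for the season contrast and the 7 sequential pairs of states (y axis); dark red marks q under 0.001 and light red q under 0.05. The differences of Bdh1 and Oxct1 stand out at the pairs that join IBA to SA and to SpD, and 1 pair inside hibernation, IBA minus LAr in Acat1 (−0.39), is coloured.

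The study's cycle was then followed from state to state. From SA to IBA, 2 of 6 genes passed q under 0.001, Bdh1 (−0.96, q = 5.15e-04) and Acat1 (−0.71, q = 1.08e-04), both lower. All genes passed at 3.15%, and as lower at 2.46%. Bdh2 (−0.51, q = 0.00495) and Oxct1 (−1.05, q = 0.00536) also passed 0.05, making 4 of 6, against 22.9%. In these 4 genes the SA animals lay above every IBA animal, a separation that was not counted over all genes. The gap was narrow in Oxct1 (K140 12.76, K1 12.74) and in Bdh1 (K140 11.10, K104 11.06). K137, shown apart, overlapped IBA in Bdh2 (11.77, with K7 at 11.855). The 10 proximal tubule markers had a median difference of −0.89 in the same pair (range −2.25 to −0.18) in limma, with 0 past 0.001, 7 past 0.05 and 7 with an unadjusted p under 0.05. With their mean per animal as a covariate Bdh1 was at −1.24 (q = 8.04e-04) and Acat1 at −0.50 (q = 0.00908), past 0.05 but not 0.001. Without K104 (IBA) neither gene passed 0.001 (Bdh1 −0.98, q = 0.00249; Acat1 −0.63, q = 0.00137), and with K137 and K113 included 0 did, with Bdh1 at −0.82 (q = 0.00645) and Acat1 at −0.66 (q = 0.00199).

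From IBA to SpD the same enzymes were higher again. Oxct1 (1.40, q = 2.5e-04) and Bdh1 (0.92, q = 3.94e-04) passed 0.001, which is 2 of 6 genes against 1.25% of all genes and 0.832% as higher. Acat1 (0.44, q = 0.00334) and Bdh2 (0.35, q = 0.0279) passed 0.05, making 4 of 6 against 11.9%. In experiment 2 alone neither did, with Acat1 at 0.29 (q = 0.226) and Bdh2 at 0.47 (q = 0.103). Bdh2 also missed 0.05 with all 31 animals (q = 0.0792), without K104 (q = 0.0664) and without K84 (q = 0.0949). Every SpD animal exceeded every IBA animal in Oxct1 and in Acat1, whereas in Bdh1 K9 (11.01) lay below K104 (11.06). The gap was narrow in Acat1 (K130 13.372, K171 13.367). Separation of SpD from IBA was not counted over all genes. Both experiments showed the direction: SpD minus IBA for Oxct1 was 1.05 in experiment 1 (3 animals against 3) and 1.93 in experiment 2 (2 against 2), and for Bdh1 it was 0.76 and 1.15, without overlap in any of these. The proximal tubule markers had a median difference of 0.30 in this pair, and with their mean as a covariate Oxct1 was at 1.55 and Bdh1 at 1.01, both past 0.001. Leaving out K7 (IBA) or K84 (SpD) left 0 genes past 0.001, with Oxct1 at 1.34 (q = 0.00153) and Bdh1 at 0.94 (q = 0.00125) without K7, and at 1.33 (q = 0.00108) and 0.82 (q = 0.00171) without K84.

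Within the cycle of hibernation, Acat1 was the gene that passed a threshold between sequential states. From IBA to Ent 0 of 6 passed 0.001 or 0.05 in limma, against 0.746% and 13.1% of all genes, and 1 had an unadjusted p under 0.05 (Acat1, 0.26). From Ent to EAr 0 passed either threshold, against 0.132% and 0.257%, and 0 had an unadjusted p under 0.05. From EAr to LAr 0 passed, against 0.295% and 0.575%, with 1 unadjusted p under 0.05 (Bdh2, 0.27). IBA minus LAr gave 0 past 0.001, against 1.43%, and 1 past 0.05, against 18%: Acat1 at −0.39 (q = 0.0134). With all 31 animals Acat1 was at −0.30 (q = 0.123), and without K104 at −0.31 (q = 0.0800). The proximal tubule markers had a median difference of −0.55 in this pair (1 past 0.05), and with their mean as a covariate Acat1 was at −0.29 (q = 0.0549). Bdh2 also had an unadjusted p under 0.05 there, at −0.28.

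Between the active states, SA and SpD, no enzyme passed the test over the 29 animals. SA minus SpD gave 0 of 6 genes past 0.001 in limma, against 0.0544% of all genes, and 1 of 6 past 0.05, against 10.5%, the transporter Slc16a1. The difference for Bdh1 was 0.04 (95% interval −0.32 to 0.40) and for Oxct1 −0.36 (−0.89 to 0.17). In experiment 2 alone Oxct1 was at −0.81 (q = 0.0241), and with the proximal tubule covariate at −0.04. Acat1 had an unadjusted p under 0.05 as well, at 0.27 (q = 0.110).

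Read as an order of states, SA and SpD headed Bdh1, Bdh2, Oxct1 and Acat1, and also the transporter Slc16a7. Among neighbours in the order, the step from SpD to LAr in Bdh1 had the lowest q (difference 0.84, q = 0.00157). The step from SA to Ent in Oxct1 was 0.74 (q = 0.0517). For Bdh2, Acat1 and Slc16a7 no neighbouring states differed at q under 0.05.

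Slc16a1 encodes MCT1, a carrier of lactate, pyruvate and ketone bodies across the cell membrane. The SA animals had 11.41, 10.24, 11.71 and 11.64, and the SpD animals 9.71, 10.56, 10.93, 10.06 and 11.30. The EAr animals had 11.36, 10.87, 11.25, 11.57 and 11.45. The 3 groups overlapped: K9 (SpD, 11.30) lay above K156 (10.87) and K157 (11.25) of EAr, and K139 (SA, 10.24) lay below 3 SpD animals. State means ran EAr 11.30 ± 0.27, SA 11.25 ± 0.69, Ent 11.05 ± 0.20, LAr 11.01 ± 0.16, IBA 10.76 ± 0.22 and SpD 10.51 ± 0.64, and no 2 neighbours in this order differed at q under 0.05.

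For Slc16a1 the season contrast was 0.15 (q = 0.456), and the differences were between single states. SpD minus EAr was −1.0 (q = 0.00954), SpD minus LAr −0.73 (q = 0.0467), EAr minus IBA 0.76 (q = 0.0448) and SA minus SpD 0.96 (q = 0.0272). With K137 and K113 included SpD minus EAr stayed past 0.05 (−0.99, q = 0.0248), and the others did not, at −0.68 (q = 0.109), 0.74 (q = 0.0960) and 0.73 (q = 0.181). SpD minus EAr was not refitted with single animals left out. Without K130 the fitted means of the 6 states spanned 0.68 at most (F test q = 0.173). Fitted differences are adjusted for sex and experiment (experiment 2 minus 1 was −0.39 in Slc16a1), so they differ from the gaps between the state means above. Without K130, SA minus SpD was 0.65 (q = 0.207), and it also missed 0.05 without K84, K138, K140 or K141. The proximal tubule markers had a median difference of 0.79 between SA and SpD (2 past 0.05), and with their mean as a covariate Slc16a1 was at 0.62 (q = 0.151). The lowest SpD values were in experiment 2: K130 (9.71) and K84 (10.06) averaged 9.89, against 10.93 for the 3 SpD animals of experiment 1. SpD minus IBA was 0.06 within experiment 1, where the animals overlapped, and −0.71 within experiment 2, where they did not. The inner medulla markers Slc14a2 and Akr1b1 averaged 9.16 to 12.70 over the 29 animals, with K130 at 12.69, and their part in the result was not tested.

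Slc16a7, which encodes the high-affinity carrier MCT2, varied more between animals than between states. It ran from 8.05 to 9.44 in SA, 7.995 to 9.31 in IBA, 7.88 to 9.19 in Ent, 8.18 to 8.78 in EAr, 7.94 to 8.85 in LAr and 8.46 to 10.42 in SpD, so that all states overlapped. Hibernation minus active was −0.49 ± 0.21 (SE; q = 0.0804). The highest value belonged to K130, and the other 4 SpD animals averaged 8.77. Within experiment 1 SpD minus IBA was −0.05, and within experiment 2 it was 1.29. With the proximal tubule marker mean as a covariate the season difference was −0.89 (q = 1.06e-04).

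**Figure D3:**
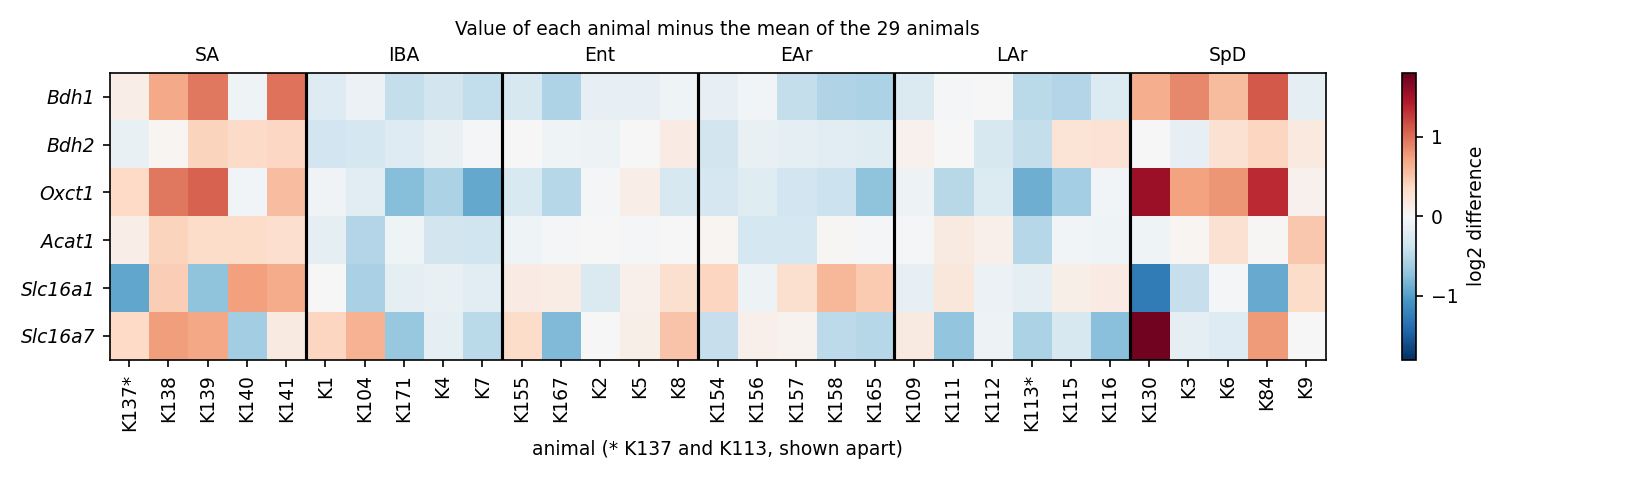
The heat map shows each animal's value minus the mean of the 29 animals (log2, colour scale) for the 6 genes (rows) by animal and state (columns). The red cells of Bdh1 and Oxct1 lie in SA and SpD with K140 and K9 pale, and K130 combines the highest Slc16a7 (10.42) with the lowest Slc16a1 (9.71).

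The animals that did not follow their state did so in several genes. K140 (SA) had the lowest Bdh1, Oxct1 and Slc16a7 of the 4 SA animals and the highest Slc16a1 (11.71). K9 (SpD) had the lowest Bdh1 and Oxct1 of its group, and the highest Acat1 (13.92) and Slc16a1 (11.30). K113 lay below the other LAr animals in Bdh2 (11.47), Oxct1 (11.93), Acat1 (12.93) and Slc16a1 (10.81). Its proximal tubule marker mean was 13.82, against 14.72 ± 0.16 in the other LAr animals (n = 5), and its inner medulla mean 14.08, against 9.45 ± 0.15, and their part in the values was not tested. K137 lay below the other SA animals in Bdh2 (11.77), Acat1 (13.57) and Slc16a1 (10.04), and within their range in Bdh1 (11.29), Oxct1 (13.16) and Slc16a7 (9.05), with marker means of 14.30 and 14.66 for the proximal tubule and the inner medulla, against 15.27 and 10.51.

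Females and males were compared in the same fit. No gene of the 6 passed 0.001 or 0.05 (0 of 6 in limma, against 0.0233% and 0.218% of all genes), and 1 had an unadjusted p under 0.05. That gene was Bdh1, higher in females by 0.37 (95% interval 0.18 to 0.55; q = 0.140). The season difference of Bdh1 was −1.05 in females and −0.70 in males, and the test of that difference between the sexes gave q = 0.994 (unadjusted p = 0.0423).

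The rest of the pathway was taken from a list of 23 further genes, of which 15 were in the table. Absent were Hmgcll1, Oxct2, Slc16a3, Slc16a8, the receptors Hcar2 and Ffar3, and the regulators Foxa2 and Fgf21. In the season contrast 1 of the 15 passed 0.001 as higher and 4 as lower in hibernation, against 4.43% and 5.29% of all genes. At 0.05 it was 1 higher and 6 lower, against 16.6% and 16.8%. The median difference was −0.22, beside 0.00 over all genes.

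**Figure D4:**
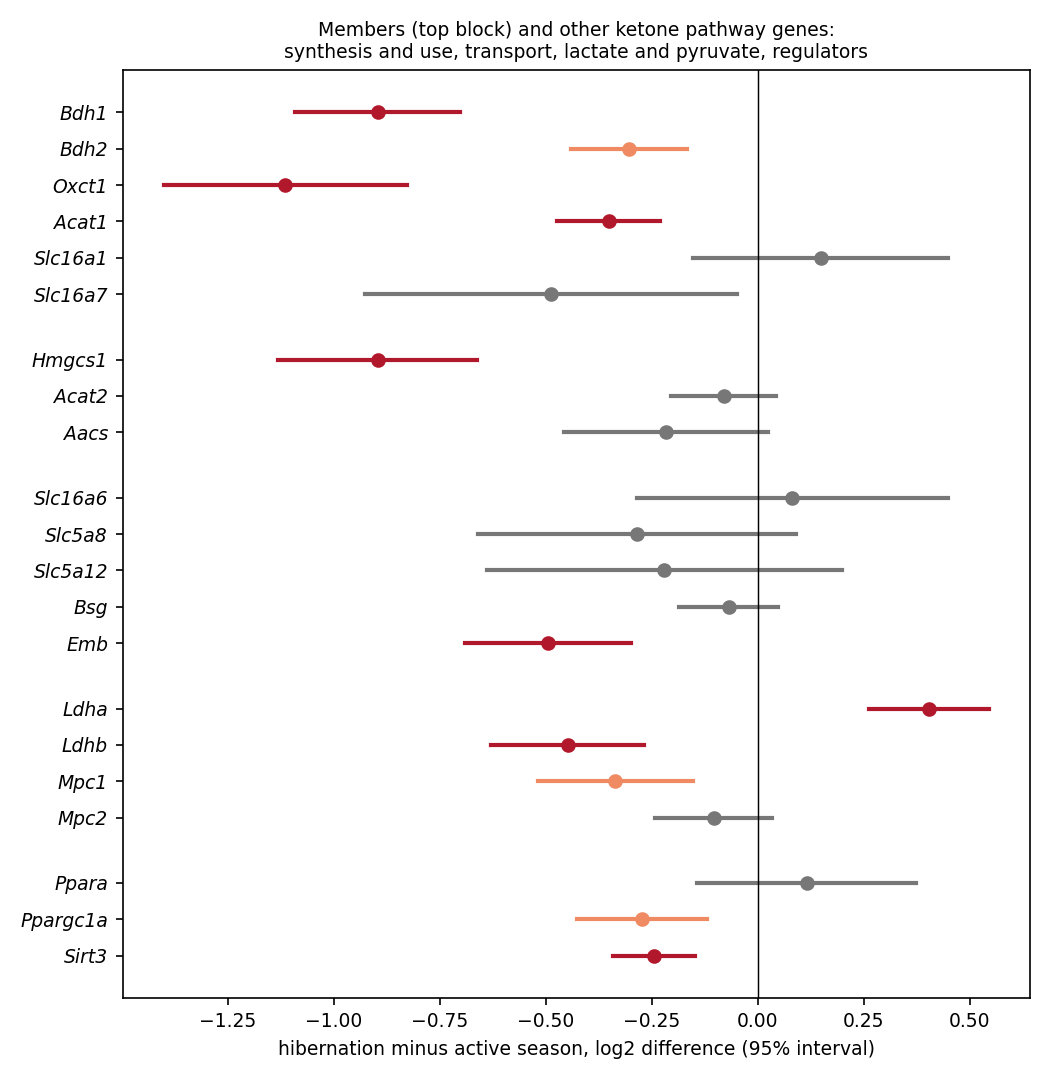
The log2 difference of hibernation minus active season (x axis) with its 95% interval is drawn for the 6 genes (top block) and 15 further pathway genes in blocks by role; dark red marks q under 0.001 and light red q under 0.05. Most points lie left of 0, with Oxct1 at −1.11, Bdh1 at −0.90 and Hmgcs1 at −0.90 farthest, and Ldha (0.40) is the dark red point to the right.

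Hmgcs1, the cytosolic synthase that feeds cholesterol synthesis, fell by 0.90 on the log2 scale in hibernation (q = 3.6e-06). Acat2, the cytosolic thiolase, differed by −0.08 (q = 0.315) and was lower in IBA than in SA (−0.45, q = 0.00585). Aacs, which activates acetoacetate for lipid synthesis, differed by −0.22 (q = 0.157).

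Among transport genes, Emb, the embigin partner protein of monocarboxylate transporters, fell by 0.49 (q = 3.57e-04), a call that was lost when any 1 of K130, K138, K139, K140 or K84 was left out. The call of Emb was also lost in experiment 2 alone and with all 31 animals but K130. Bsg, the basigin partner of MCT1, differed by −0.07 (95% interval −0.19 to 0.05). The sodium-coupled monocarboxylate carriers Slc5a8 (−0.28, q = 0.234) and Slc5a12 (−0.22, q = 0.418) and the carrier Slc16a6 (0.08, q = 0.753) did not pass. Slc5a12 was lower in IBA than in SA (−1.18, q = 0.0259), and with all 31 animals the difference was −0.83 (q = 0.212). This is the pair in which the proximal tubule markers had a median of −0.89.

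The subunits of lactate dehydrogenase moved apart: Ldha rose by 0.40 in hibernation (q = 1.08e-04) and Ldhb fell by 0.45 (q = 4.1e-04), the second call being lost without K138, K139 or K3. Mpc1, a subunit of the mitochondrial pyruvate carrier, fell by 0.34 (q = 0.00539), and its partner Mpc2 differed by −0.10 (q = 0.236). Of the regulators, Sirt3, a mitochondrial deacetylase, fell by 0.25 (q = 3.16e-04, lost without K139, with all 31 animals, with animal weights and in experiment 2 alone), and Ppargc1a, a coactivator of mitochondrial genes, by 0.27 (q = 0.00667). Ppara, a nuclear receptor for fatty acids, differed by 0.11 (q = 0.505).

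The genes whose values were most like each of the 6 over the 29 animals are given as a description by Pearson's r, across animals that share states, sex and library preparation. Bdh1 and Oxct1 were among each other's 3 nearest genes (r = 0.90). The others nearest to Bdh1 were Serpind1 (0.92) and Mei1 (0.90), and to Oxct1 Slc6a20 (0.91) and Oat (0.90). Acat1 was nearest to Aldh7a1 (0.86), Pcca (0.86) and GSTM4 (0.84), Bdh2 to Cryl1 (0.77), Apip (0.77) and Etfa (0.76), Slc16a1 to Igsf11 (0.86), Acot6 (0.83) and Glyctk (0.81), and Slc16a7 to Qpct (0.92), Esrrb (0.92) and Pla1a (0.91).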

How the data were processed

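Kidney RNA was sequenced as poly(A) libraries made with the Illumina TruSeq stranded kit (experiment 1) or the Nugen Universal Plus kit (experiment 2). The deposited values are log2: after adapter trimming (cutadapt) and a filter on mitochondrial sequence (HISAT2), the authors ran Salmon against HiC_Itri_2 transcripts, kept genes with an rlog value of at least 7 in most animals of a group, made rlog values with DESeq2 and adjusted them for experiment with removeBatchEffect of limma. Rlog values pull low counts together, which understates their differences, and counts per library were not used here, so a test on counts, as in the study, was replaced by limma 3.58.1 (R 4.3.3).

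The fit on 29 animals held state, sex and experiment, with an intensity trend. Contrasts were adjusted over all 12863 genes, and a call was q under 0.001, with 0.05 as a second threshold. Each animal was 1 replicate, grouped by its labelled state. The script was tested on simulated data. Figures were drawn with matplotlib 3.10.9. The 6 genes, the gene lists and the tests were chosen with earlier results of these data known. Named genes were the 6, the pathway list, and the 3 genes with a symbol most correlated with each; some genes of the pathway are not reported here. Alternatives left out each animal or changed the animals, covariates, filter, centring, variance model or threshold.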

Additional observations from a re-analysis of the deposited data

Results flagged for a closer look

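In LAr (6 animals, K113 included) the Acat1 value of K113 was 12.93, and its gap to the next animal was 0.655 of the whole range of the group, which is beyond Dixon's 95% critical value. This was the 1 group flagged of 36 tested, and chance flags about 1 in 20 groups. The proximal tubule marker mean of K113 was 13.82, against 14.72 ± 0.16 in the other 5 LAr animals, and its part in the value was not tested.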

How the results depend on the processing

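Under 13 alternatives and 29 fits that each left out 1 animal, the season and 6-state calls of Bdh1 and Oxct1 stayed past 0.001 in the same direction, and no called difference of the 6 genes reversed. The count over the 6 states was 3, and 5 at a threshold of 0.05, with a range of 2 to 3 over left-out animals: Acat1 lost its call without K104, K138, K139 or K140, and also with all 31 animals, with the proximal tubule covariate and in experiment 2 alone. For IBA against SA the count of 2 became 0 with all 31 animals, with only those states in the fit and with all 31 animals but K130, 1 without a term for sex, with the proximal tubule covariate or in experiment 2 only, and 4 at 0.01 or 0.05. Its range over left-out animals was 0 (without K104) to 2, with 1 without K138, K139, K141 or K171. For SpD against IBA the count of 2 became 1 with all 31 animals or without a term for sex, 0 in experiment 2 only, with only those states in the fit and with all 31 animals but K130, and 4 at 0.05. Its range over left-out animals was 0 (without K7 or K84) to 2, with 1 without K1, K104, K130 or K3. Without K171 Bdh1 lost its call in this pair and Acat1 gained a call. Acat1 joined Oxct1 and Bdh1 in this pair with animal weights (q = 4.74e-04) and at 0.01. At 0.05, SA against SpD and IBA against LAr each rose from 0 to 1. In the season contrast Bdh2 gained a call without a term for experiment or for sex, with animal weights and at 0.01. Bdh2 also gained it in 7 of the 29 fits that left out 1 animal (K115, K116, K130, K138, K3, K7 or K8). In the same contrast Slc16a7 gained a call with the proximal tubule covariate, and Acat1 lost its call in experiment 2 alone. The cause was not tested. The fit without K130 was chosen after seeing the data. Each of the 6 genes had 1 row, so choosing another row gave no value. No paired analysis was possible because each animal was sampled once, in 1 state. Read depth is unknown, so precision rests on the spread between 4 or 5 animals per state.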
